A study of Rattus norvegicus with 13 samples.

Results

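The transcripts described here encode the proteins of the mitochondrial ribosome, as measured in the posterior ventricular zone (VZ), the germinal epithelium lining the lateral ventricle, of newborn rats. The rule took rows named *Mrpl* or *Mrps* followed by a number, with a mean of at least 10 normalized counts over all pups. This gave 71 rows of 70 genes among 14606 rows tested, of which 43 rows of 42 genes were named for the large subunit and 28 rows of 28 genes for the small subunit. No row with such a name was lost to the minimum of 10. The VZ was laser captured on postnatal day 2 from male Long Evans rats, 1 pup per litter, and each pup gave 1 RNA-Seq library. The 7 control pups came from dams that drank deionized water, the vehicle, and the 6 PTU pups came from dams given 3 ppm 6-propyl-2-thiouracil (PTU), which blocks thyroid hormone synthesis, in drinking water from early gestation. PTU was given to the dam, so that effects on the dam and effects on the pup itself cannot be told apart.

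The mitochondrial ribosome translates the small set of respiratory chain proteins that mitochondrial DNA encodes. Its rRNAs come from the mitochondrial genome, whereas each of its proteins is encoded in the nucleus, translated in the cytosol and imported. The small subunit binds and decodes the mRNA, and the large subunit joins the amino acids and passes the growing chain through an exit tunnel to the inner membrane. Many of the proteins descend from bacterial ribosomal proteins, and the rest were added in the mitochondrial lineage. Thyroid hormone is a known regulator of mitochondrial content and respiration in many tissues.

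A set of 5 members had an unadjusted p under 0.05 in the comparison of PTU with control, and their promoter windows are shown because the values below turn on these genes. Each window is the RefSeq sequence (GRCr8) from 250 bases before to 50 bases after the annotated start, printed in the direction of the gene. Capitals mark matches, on either strand, to GCGCNTGCG (nuclear respiratory factor 1, NRF1), CCGGAAG (the ETS family, which includes GABPA, also called NRF2) and AANATGGCG (YY1), all of them factors known at promoters of nuclear genes for mitochondrial proteins.

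*Mrpl57*, chr15:36086207-36086506, plus strand: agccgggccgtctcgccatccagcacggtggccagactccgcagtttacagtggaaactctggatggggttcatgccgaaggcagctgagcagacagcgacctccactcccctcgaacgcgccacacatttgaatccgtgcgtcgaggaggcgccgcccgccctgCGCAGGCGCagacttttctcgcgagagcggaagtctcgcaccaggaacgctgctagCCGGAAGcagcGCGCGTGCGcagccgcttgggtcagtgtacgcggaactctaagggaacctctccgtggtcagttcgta
*Mrps30*, chr2:52195855-52196154, minus strand: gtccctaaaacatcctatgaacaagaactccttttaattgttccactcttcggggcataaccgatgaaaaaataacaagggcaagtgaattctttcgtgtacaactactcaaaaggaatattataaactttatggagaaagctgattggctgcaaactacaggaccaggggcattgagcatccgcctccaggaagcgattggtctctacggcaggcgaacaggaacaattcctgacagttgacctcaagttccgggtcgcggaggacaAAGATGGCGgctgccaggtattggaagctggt
*Mrps15*, chr5:143605891-143606190, plus strand: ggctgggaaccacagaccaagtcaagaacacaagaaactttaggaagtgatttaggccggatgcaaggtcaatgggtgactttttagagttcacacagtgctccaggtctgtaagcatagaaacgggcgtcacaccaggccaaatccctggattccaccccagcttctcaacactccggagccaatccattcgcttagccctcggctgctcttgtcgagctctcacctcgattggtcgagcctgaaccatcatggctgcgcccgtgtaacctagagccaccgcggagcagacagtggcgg
*Mrpl10*, chr10:82522220-82522519, plus strand: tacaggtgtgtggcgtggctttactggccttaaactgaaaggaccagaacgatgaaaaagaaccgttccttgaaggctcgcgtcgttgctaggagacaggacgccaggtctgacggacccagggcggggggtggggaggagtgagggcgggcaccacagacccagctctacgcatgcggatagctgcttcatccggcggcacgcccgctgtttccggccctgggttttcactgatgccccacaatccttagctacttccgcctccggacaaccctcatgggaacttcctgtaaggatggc
*Mrpl23*, chr1:207116680-207116979, plus strand: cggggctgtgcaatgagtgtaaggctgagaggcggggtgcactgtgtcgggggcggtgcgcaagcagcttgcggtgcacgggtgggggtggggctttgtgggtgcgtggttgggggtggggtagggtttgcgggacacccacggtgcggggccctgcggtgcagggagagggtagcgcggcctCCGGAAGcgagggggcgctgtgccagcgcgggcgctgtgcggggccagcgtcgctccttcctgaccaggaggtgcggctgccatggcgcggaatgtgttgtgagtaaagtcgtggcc

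The *Mrpl57* window held an NRF1 match at bases 166 to 174, an ETS match at bases 222 to 228 and another NRF1 match at bases 233 to 241, counted from the 5′ end of the window. The *Mrpl23* window held an ETS match at bases 184 to 190, and the *Mrps30* window a YY1 match at bases 269 to 277, past the start. The windows of *Mrps15* and *Mrpl10* held none of these letters. A match is a description of the letters and not a binding site, and no window bore a measurement of binding in these data.

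No mitochondrial ribosomal protein transcript passed the adjusted threshold. By limma with Benjamini-Hochberg adjustment over all 14606 rows, 0 of 71 member rows had an adjusted p of at most 0.05, and the same was true of 0 rows of the whole table (0%), although 1185 rows higher in PTU and 1198 rows lower in PTU had an unadjusted p under 0.05. The paper reported differentially expressed genes from its own comparison of these pups, made with another method. The absence of called rows therefore applies to the limma fit used here and does not show that PTU changed no transcript. The reason for the difference between the methods was not tested. The smallest adjusted p among the members was 0.148, for *Mrpl57*. Of the members, 4 rows (5.63%) were higher in PTU with an unadjusted p under 0.05, against 8.11% of all rows, and 1 row (1.41%) was lower, against 8.2% of all rows. In none of the 71 rows did the values of the 2 groups fail to overlap, against 0.596% of all rows. Counts this close to the share of all rows say nothing particular to the members in the higher direction.

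The differences that were measured were small. Log2 fold changes of PTU against control ran from -0.31 to 0.95 over the members, with a median of 0.05 beside a median of 0.0038 over all rows. Of the member rows, 43 were higher and 28 lower in PTU, so that 60.6% were higher beside 50.7% of all rows. Scaling every pup to the same total instead moved the median of all rows to 0.20, and 64 member rows were then higher and 7 lower, with 43 again above the median of all rows; *Mrpl51*, *Mrps18a* and the *Mrpl42* row with the higher mean were lower under the deposited scaling and higher under this one. The 95% confidence interval of the log2 fold change lay within 1 of 0 for 69 of 71 member rows (97.2%), compared with 82.9% of all rows, and *Mrpl14* and *Mrps17* were the exceptions. It lay within 0.5 of 0 for 43 member rows (60.6%), compared with 48.1% of all rows. The median SD between pups within groups was 0.26 on the log2 scale for members and 0.28 for all rows.

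**Figure D1:**
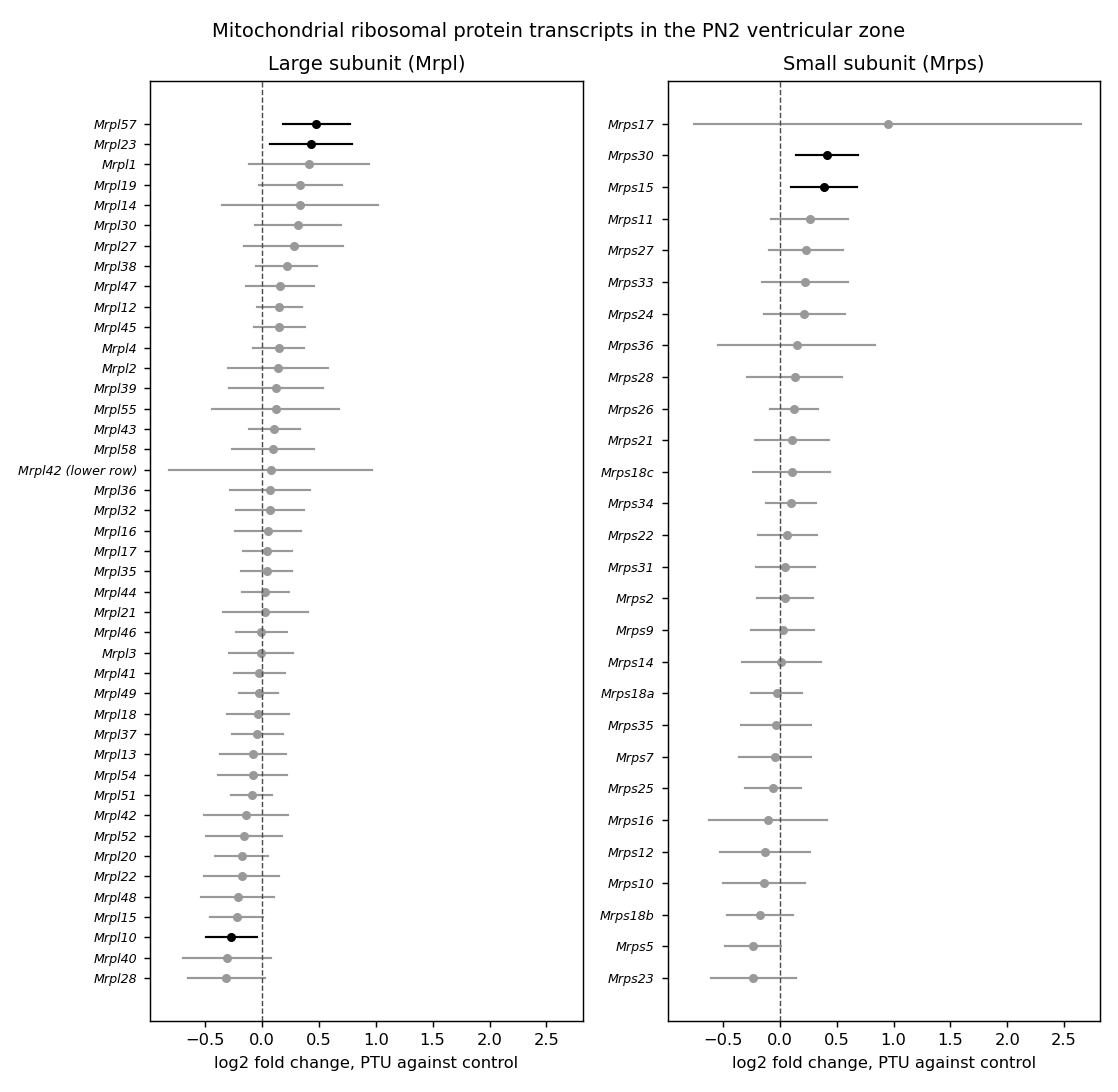
Log2 fold change of PTU against control (points) with its 95% confidence interval (lines) for the 43 large subunit rows and the 28 small subunit rows, sorted within each subunit. Black marks the 5 rows with an unadjusted p under 0.05, and most intervals cross 0.

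Among large subunit proteins, *Mrpl57*, a small protein found only in mitochondrial ribosomes, had the smallest p. Its normalized counts in control pups ran from 201 to 339 with a median of 270, and in PTU pups from 292 to 439 with a median of 376. Every PTU pup was above the control mean, and the groups overlapped through the highest control pup and the lowest PTU pup. The mean was 272 ± 40.7 (SD, n = 7) in control and 378 ± 52.4 (SD, n = 6) in PTU, a log2 fold change of 0.48 (SE 0.14, adjusted p = 0.148 by limma, unadjusted p = 0.003). The exact two-sided permutation test over the 1716 ways of dividing 13 pups into 7 and 6 gave p = 0.0035 for this row alone.

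*Mrpl23* encodes a protein at the rim of the exit tunnel. Its normalized counts ran from 116 to 201 with a median of 161 in control pups and from 172 to 299.6 with a median of 216 in PTU pups. All 6 PTU pups exceeded the control mean of 167 ± 30.0 (SD, n = 7), and PTU replicate 4 was the highest. The log2 fold change was 0.43 (SE 0.17, adjusted p = 0.236 by limma), and the exact permutation p was 0.0128. Without PTU replicate 4 the unadjusted limma p of *Mrpl23* was 0.065.

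*Mrpl10* encodes the protein at the base of the stalk, the arm that recruits translation factors, and was the only row of the 5 that was lower in PTU. Normalized counts ran from 596 to 869 with a median of 662 in control pups and from 507 to 619.6 with a median of 548 in PTU pups. No PTU pup reached the control mean of 678 ± 95.3 (SD, n = 7), and the values of 2 PTU pups (617 and 619.6) lay within the control range. The log2 fold change was -0.27 (SE 0.11, adjusted p = 0.236 by limma), and the exact permutation p was 0.0117. Control replicate 6 was the highest control pup, and without it the unadjusted limma p was 0.0504.

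The other large subunit rows singled out by the naming rule did not pass either threshold. *Mrpl28*, the largest fall in the subunit at -0.31 (adjusted p = 0.342 by limma), ranged from 861 to 1113 in control pups. Its PTU values were 484, 1285, 756, 837, 812 and 822 in replicates 1 to 6. PTU replicate 2 was above the control range and the other PTU pups were below it. Without PTU replicate 1, the lowest pup, *Mrpl28* was at -0.17 and no longer the largest fall. Without PTU replicate 2 it was at -0.45 (adjusted p = 0.0888 by limma). *Mrpl15* was at 804 ± 110.5 (SD, n = 7) in control and 687 ± 89.4 (SD, n = 6) in PTU, a log2 fold change of -0.22 (adjusted p = 0.323), and *Mrpl19* at 226 ± 48.9 and 283 ± 49.7, a log2 fold change of 0.34 (adjusted p = 0.338). *Mrpl51*, the large subunit row with the highest mean (1361 normalized counts), differed by -0.09 (SE 0.09), and by -0.05 without PTU replicate 1. *Mrpl42* was deposited in 2 rows under different transcript identifiers, with log2 fold changes of -0.14 in the row with a mean of 245 and 0.08 in the row with a mean of 23.8, the lowest of all members. The first of these was -0.02 without PTU replicate 3 and -0.23 without PTU replicate 2. How reads were divided between these rows cannot be seen in the values.

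*Mrps30* had the smallest p among rows named for the small subunit, although its protein sits in the large subunit of the mammalian mitochondrial ribosome. Its normalized counts ran from 300.1 to 471 with a median of 408 in control pups and from 454 to 678 with a median of 525 in PTU pups. All PTU pups were above the control mean of 402 ± 56.6 (SD, n = 7), while the lowest PTU values lay within the control range. The log2 fold change was 0.41 (SE 0.13, adjusted p = 0.167 by limma), and the exact permutation p was 0.00408.

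*Mrps15*, a small subunit protein with a bacterial homologue that binds the rRNA of the subunit directly, showed a difference of like size. Control pups ran from 229 to 331 with a median of 249 normalized counts, and PTU pups from 289 to 452 with a median of 337. Every PTU pup exceeded the control mean of 262 ± 36.5 (SD, n = 7). The log2 fold change was 0.39 (SE 0.14, adjusted p = 0.186 by limma), and the exact permutation p was 0.00641. *Mrpl57*, *Mrps30* and *Mrps15* kept an unadjusted p under 0.05 in each of the 13 fits that left out 1 pup, with highest values of 0.00922, 0.0162 and 0.0352 respectively.

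**Figure D2:**
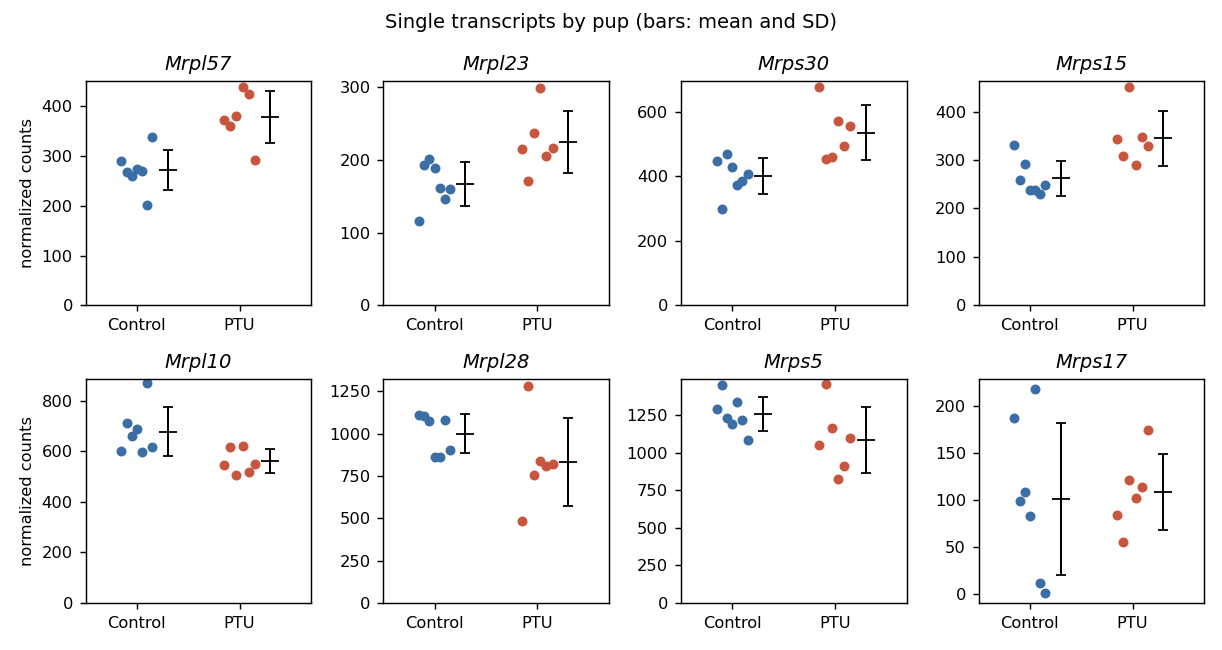
Normalized counts (vertical axes, starting at or just below 0) of 8 members in each control pup (blue) and PTU pup (red), with the mean and SD of each group as black bars. *Mrpl57*, *Mrpl23*, *Mrps30* and *Mrps15* were higher in PTU with overlapping ranges, *Mrpl10* was lower, and *Mrps17* was near 0 in 2 control pups.

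*Mrps17*, which encodes a small subunit protein of bacterial descent, had the widest spread of all members. Its control values were 188, 99.5, 108, 83.4, 218, 11.9 and 1.60 normalized counts in replicates 1 to 7, and its PTU values ran from 55.4 to 175. The control means and PTU means were close, at 102 ± 81.1 (SD, n = 7) and 109 ± 40.2 (SD, n = 6), whereas the log2 fold change of 0.95 (95% confidence interval -0.75 to 2.65, adjusted p = 0.574 by limma) rested on control replicates 6 and 7. Without control replicate 7 it was 0.22, and without control replicate 6 it was 0.60. It was 0.58 with a pseudocount of 10 in place of 1.

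The remaining small subunit rows of the naming rule had adjusted p values of 0.328 or above. *Mrps5*, whose protein lies at the mRNA entry, was at 1258 ± 115 (SD, n = 7) in control and 1084 ± 222 (SD, n = 6) in PTU, a log2 fold change of -0.23 (adjusted p = 0.328 by limma). *Mrps23* was at -0.23 (adjusted p = 0.522) and, without PTU replicate 1, at -0.09. *Mrps11* was at 0.26 (adjusted p = 0.418) and *Mrps27*, an RNA-binding protein of the pentatricopeptide repeat family, at 0.23 (adjusted p = 0.47). *Mrps9*, with the highest mean of the small subunit rows (1305 normalized counts), differed by 0.03 (SE 0.13). *Mrps18a*, named for the small subunit but placed in the large one, was at -0.03 (SE 0.11). *Mrps36*, whose protein is now known as a component of the 2-oxoglutarate dehydrogenase complex and not of the ribosome, had the lowest mean (67.2 normalized counts) and a log2 fold change of 0.15 (SE 0.33, adjusted p = 0.852), which was 0.42 without PTU replicate 2 and 0.01 (0.0064) without control replicate 6.

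The 2 subunits had medians close to each other. In the large subunit 25 rows were higher and 18 lower in PTU, with a median log2 fold change of 0.05 (0.0478). In the small subunit 18 were higher and 10 lower, with a median of 0.06 (0.0589). Unadjusted p values under 0.05 were found for 2 higher rows (4.65%) and 1 lower row (2.33%) of the large subunit. In the small subunit they were found for 2 higher rows (7.14%) and no lower row, beside 8.11% and 8.2% of all rows. The higher counts set neither subunit apart, and the lower shares of both were below that of all rows. Placing *Mrps18a* and *Mrps30* in the large subunit by structure and leaving out *Mrps36* gave medians of 0.05 for both, at 0.0478 and 0.0505, with 3 higher rows (6.67%) under 0.05 in the large subunit and 1 (4.00%) in the small.

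The mean of the members in each pup, taken after centring each row on its mean log2 value over the 13 pups, moved little. For the large subunit it ran from -0.05 to 0.00 in control pups (mean -0.02 ± 0.02 SD, n = 7) and from -0.02 to 0.13 in PTU pups (mean 0.03 ± 0.05 SD, n = 6). For the small subunit it ran from -0.22 to 0.04 in control pups (-0.04 ± 0.09) and from 0.01 to 0.12 in PTU pups (0.05 ± 0.05). The groups overlapped in both subunits, control replicate 7 was lowest for the small subunit, and PTU replicate 4 was highest for both. Leaving *Mrps17* out, a choice made after its values were seen, moved control replicate 7 from -0.22 to -0.05 and the control range to -0.07 to 0.02.

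The difference between the subunit means, large minus small, averaged 0.02 ± 0.08 (SD, n = 7) in the control group and -0.02 ± 0.03 (SD, n = 6) in the PTU group. Control replicate 7 was at 0.19, and without it the control mean was -0.01 ± 0.02 (SD, n = 6). With *Mrps17* left out instead, the means were 0.00 (0.0036) ± 0.04 and 0.00 (-0.0042) ± 0.02, closer than the SD of either group. These means are given as a description without a test. PTU replicate 4 also had the highest mean of the cytosolic ribosomal protein rows (0.28) and of the mitochondrially encoded rows (0.90) on the same scale, and the part of this pup in the member results was measured by leaving it out. Without it the median log2 fold change of the large subunit was 0.01 (0.0084) and that of the small subunit 0.06 (0.0594).

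**Figure D3:**
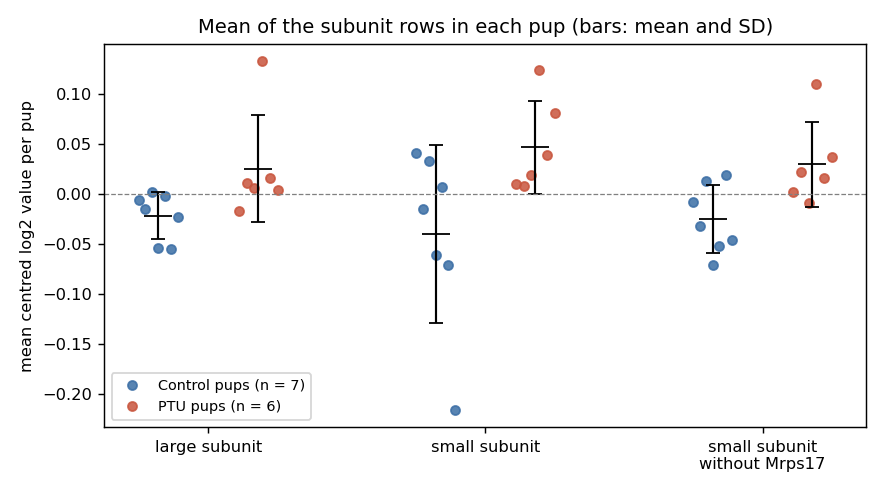
Mean centred log2 value of the large subunit rows, the small subunit rows and the small subunit rows without *Mrps17* in each pup (control blue, PTU red), with group mean and SD as black bars. The groups overlap in each panel, PTU replicate 4 is highest throughout, and the low control pup of the small subunit moves to the others once *Mrps17* is left out.

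By position in the ribosome, no group of proteins held more than 1 row with an unadjusted p under 0.05. Counts of such small sets are to be read against all rows, of which 50.7% were higher and 8.11% higher or 8.2% lower with an unadjusted p under 0.05. Around the exit tunnel 6 of 7 measured rows were higher in PTU (median 0.12), with only *Mrpl23* under 0.05, and near the peptidyl transferase centre, where the amino acids are joined, 3 of 4 rows were higher (median 0.10) and none was under 0.05. In the stalk, 1 of 3 measured rows, *Mrpl12*, was higher (log2 fold change 0.15) and 2 were lower, of which *Mrpl10* was under 0.05. The central protuberance, where the large subunit contacts the small one, had 2 of 5 rows higher (median -0.01). In the head of the small subunit 5 of 8 rows were higher (median 0.02), and the rows at the decoding site and mRNA entry, *Mrps12* and *Mrps5*, were both lower at -0.13 and -0.23, none of them under 0.05.

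Rows with and without a bacterial homologue also had close medians. The 42 rows with a bacterial homologue had a median log2 fold change of 0.05 (0.0499; 27 higher, 15 lower), with *Mrps15* and *Mrpl23* higher (4.76%) and *Mrpl10* lower (2.38%) at an unadjusted p under 0.05. The 29 rows without one had a median of 0.05 (0.0505; 16 higher, 13 lower), with *Mrpl57* and *Mrps30* higher (6.9%) under 0.05. None of these shares exceeded that of all rows (8.11% higher, 8.2% lower).

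Subunits of the mitochondrial ribosome that carry other names were also measured. Of these 5, *Ptcd3* (0.22), *Gadd45gip1* (0.20) and *Chchd1* (0.20) were higher and *Dap3* (-0.07) and *Aurkaip1* (-0.16) lower, and none had an unadjusted p under 0.05. The smallest adjusted p was 0.348 by limma, for *Gadd45gip1*, at 1058 ± 156 normalized counts (SD, n = 7) in control and 1213 ± 131 (SD, n = 6) in PTU.

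The factors that work on the mitochondrial ribosome were measured as well. Of 13 mitochondrial translation factors, which start, extend, end and recycle, 6 were higher and 7 lower (median -0.01), and none had an unadjusted p under 0.05. *Tufm*, the elongation factor that brings tRNA to the ribosome, differed by 0.01 (SE 0.09). Of 22 rows of 21 assembly factors, 16 (72.7%) were higher and 6 lower (median 0.08), beside 50.7% of all rows higher. In each direction 1 row (4.55%) was under 0.05, beside 8.11% higher and 8.2% lower of all rows. The assembly factor rows under 0.05 were *Mrm2*, a methyltransferase for the large rRNA (0.40, SE 0.19, adjusted p = 0.296 by limma), and 1 of 2 rows of *Nsun4*, a methyltransferase for the small rRNA (-0.37, SE 0.16, adjusted p = 0.273), whose other row was at 0.27. No mitochondrial rRNA row was analysed here.

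Beside the member median of 0.05, which was 0.02 without PTU replicate 2 and 0.10 (0.095) without PTU replicate 5, cytosolic ribosomal protein and mitochondrially encoded transcripts had higher medians. Of 85 cytosolic ribosomal protein rows, 59 were higher in PTU with a median log2 fold change of 0.14, and 24 (28.2%) were higher and 2 (2.35%) lower with an unadjusted p under 0.05, beside 8.11% and 8.2% of all rows. All 13 mitochondrially encoded rows, whose mRNAs this ribosome translates, were higher in PTU with a median of 0.53, and 10 of them (76.9%) had an unadjusted p under 0.05. None of these rows passed the adjusted threshold. After the same centring, the mean of the mitochondrially encoded rows ran from -0.92 (replicate 6) to 0.07 in control pups. In PTU pups it ran from -0.15 to 0.90 (replicate 4), so that the groups overlapped. The differences between the members and these sets were not tested.

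**Figure D4:**
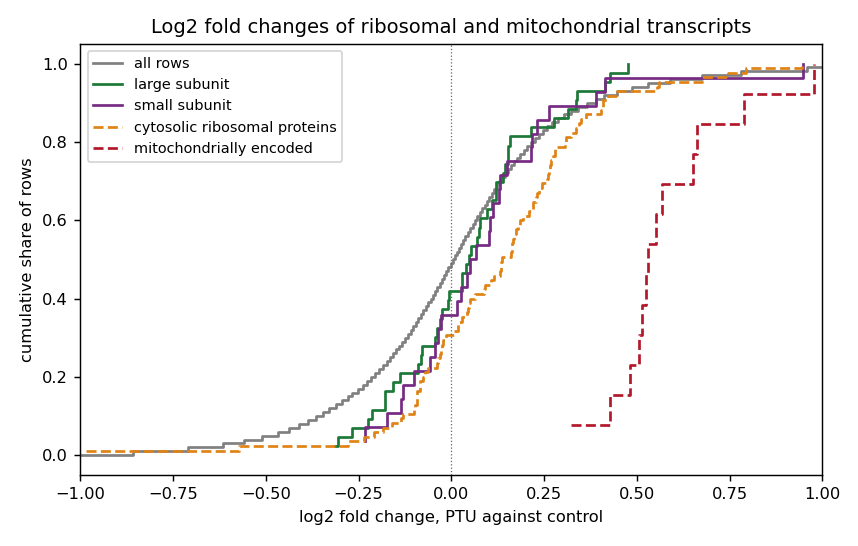
Cumulative share of rows (vertical axis) at or below each log2 fold change of PTU against control (horizontal axis, shown from -1 to 1) for all rows, both subunits, cytosolic ribosomal proteins and mitochondrially encoded rows. Both subunit curves rise steeply near 0, with medians of 0.05 and 0.06, and the mitochondrially encoded rows lie to the right with a median of 0.53.

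The captured tissue expressed markers of several cell types, and some moved with the groups. All 8 radial glia markers, which define the VZ, were present, and all 8 were lower in PTU (5 with an unadjusted p under 0.05), with summed normalized counts of 73699 to 102847 in control pups and 61169 to 80981 in PTU pups. All 8 neuron markers were higher (4 under 0.05; 52667 to 76097 against 68570 to 111132), and all 8 choroid plexus markers were lower (4 under 0.05; 48559 to 136842 against 22599 to 97073). The 7 oligodendrocyte lineage markers were higher (2 under 0.05; 4788 to 8882 against 6440 to 10113), while 4 of 6 measured endothelial markers and 5 of 7 microglia markers were higher, with 1 microglia marker lower under 0.05. The only erythrocyte marker measured was lower, and no measured marker was at 0 in every pup. The paper states that choroid plexus cells were not part of its RNA-Seq samples, although their markers were measured here. In bulk samples, fewer cells of a type and less RNA per cell cannot be told apart, and the part of this mixture in the member values was not tested.

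Depth was estimated from the spacing of low values at 22290727 to 43511582 reads in control pups and 28413166 to 44385341 in PTU pups. The 3 rows with the highest values, which carry no gene name, took 32.4% to 60.1% of the normalized counts in control pups and 23.9% to 57.0% in PTU pups. Of the counts outside these 3 rows, the members together took 0.156% to 0.17% in control pups and 0.162% to 0.175% in PTU pups, ranges that overlap.

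The promoter windows of all members were searched for the same letters. RefSeq windows were found for 56 of 70 member genes (34 large, 22 small), and their median GC content was 55.8%, against 60.7% for the genes tested. At least 1 NRF1, ETS or YY1 match was held by 33 of the 56 (58.9%), against 31.7% of 10178 tested genes and 17.1% of all 27457 genes with a window of the same length. Singly, NRF1 was matched in 21.4% of member genes and 13.3% of tested genes, ETS in 33.9% and 17.4%, and YY1 in 21.4% and 6.33%. A GC-rich match to GGGCGGG (the SP family), by contrast, was found in 33.9% of member genes and 47.6% of tested genes. NRF1 and ETS matches were found in 8 and 11 large subunit genes and in 4 and 8 small subunit genes.

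Median differences were small in member genes with and without such a match. The 33 with a match had a median log2 fold change of 0.05 (22 higher, 11 lower), and the 23 without had a median of -0.03 (10 higher, 13 lower), a description that was not tested. Of the 56 member genes, 18 (32.1%) started within 1000 bases of a gene on the opposite strand, head to head, beside 16.6% of tested genes. *Mrpl46* and *Mrps11* were such a pair, 234 bases apart, with log2 fold changes of -0.01 and 0.26. *Mrpl47* shared its start region with *Ndufb5*, a subunit of respiratory complex I, which was at 0.46 (adjusted p = 0.195 by limma) where *Mrpl47* was at 0.16 (adjusted p = 0.605). *Mrps7* and *Gga3*, 269 bases apart, had opposite signs, with *Gga3* at 0.28 (adjusted p = 0.208) and *Mrps7* at -0.04. Of the 16 pairs with both genes measured, 11 had log2 fold changes of the same sign. Some of these signs rest on small values, such as *Eme1*, the partner of *Mrpl27*, at 0.0014. The share of same-sign pairs among other genes was not measured, and this count was not tested.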

How the data were processed

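RNA-Seq of the laser captured VZ was deposited for 7 control and 6 PTU pups. The authors made stranded total RNA libraries after rRNA depletion, trimmed reads with Trimmomatic, aligned them with STAR 2.7.8a to mRatBN7.2 and quantified them in Partek Flow. The paper reported reduced integrity of the captured RNA, with some degradation. Its bearing on single rows was not tested. The deposited values used here are signal values: counts normalized by the authors by median ratio, not corrected for length, so that the highest and lowest means by which rows were named rank normalized counts and not transcript abundance. Of these values, 86.7% to 90.3% of the low values in each pup were within 0.05 of a whole number of reads, too few to recover counts. The authors' DESeq2 comparison (p-value, ratio, log2 ratio, and a signed fold change given as a score) was also deposited and was not used.

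Rows with a mean of at least 10 (14606 rows; 1488 deposited rows carry no gene name) were fitted with limma 3.58.1 in R 4.3.3 on log2(value + 1), with empirical Bayes and a variance trend, and adjusted by Benjamini-Hochberg over all rows; fold changes are on that scale and understate the change of low rows. Single rows were also compared by an exact two-sided permutation test (smallest p 0.000583). Members named were the 5 smallest p values, the highest and lowest mean and the largest rise and fall in each subunit, repeated rows, *Mrps18a*, *Mrps30* and *Mrps36*. The members and lists were chosen with earlier results of these data known. Groups and replicate numbers came from the labels; same-numbered pups correlated at -0.07 to 0.20, above 0.1 in 4 of 6 pairs, so the numbers were not taken as pairs. Promoter windows (GRCr8) were matched by symbol or synonym.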

Additional observations from a re-analysis of the deposited data

Results flagged for a closer look

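Of 42 groups of pups examined among the named rows and subunit means, 2 held a pup far from the others by Dixon's ratio, the gap to the nearest pup divided by the range, where chance marks about 1 group in 20. *Mrps36* in PTU replicate 2 was the lowest of its group at 25.1 normalized counts, with a ratio of 0.69 taken on log2(value + 1). Without that pup the log2 fold change of this row was 0.42. The large subunit mean of PTU replicate 4 was the highest of its group at 0.13, with a ratio of 0.776.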

How the results depend on the processing

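No member had an adjusted p of at most 0.05 under any of the alternatives, and the smallest adjusted p among members ran from 0.0679 to 0.40. Scaling every pup to the same total shifted the median of all rows to 0.20 and gave 9 members with an unadjusted p under 0.05, 9 higher and 0 lower (12.7% and 0%, beside 10.8% and 0.554% of all rows), with medians of 0.25 (large, 0.2492) and 0.26 (small, 0.2601). Relative to all rows these medians were 0.04 and 0.06, with 43 members above the median of all rows as before. The share of members higher in PTU rose to 64 of 71 under this scaling. The *Mrpl42* row with the higher mean (0.0615), *Mrpl51* (0.11) and *Mrps18a* (0.17) then changed sign. The remaining named falls were smaller, with *Mrpl28* at -0.11, *Mrpl10* at -0.07, *Mrps23* and *Mrps5* at -0.03 and *Mrpl15* at -0.02. The named rises were larger, with *Mrpl57* at 0.68 and *Mrps30* at 0.61. Array weights gave 3 lower members (4.23%, beside 10.4% of all rows), 40 called rows in the whole table and 0.0457 for *Mrps18a*. A replicate block, in which control replicate 7 has no partner, gave 8 members with an unadjusted p under 0.05, 4 of them lower (5.63% in each direction, beside 10.1% higher and 10.2% lower of all rows), and 18 called rows in the whole table, of which 0 were members; 1 of 6 PTU pups correlated best with its own number.

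Leaving out 1 pup at a time gave 5 to 10 members with an unadjusted p under 0.05, 4 to 6 higher (5.63% to 8.45%, beside 6.12% to 10.3% of all rows) and 0 to 4 lower (0% to 5.63%, beside 6.14% to 10.2%). The count was 10 without PTU replicate 2, when *Mrpl15*, *Mrpl28* and *Mrps5* joined *Mrpl10* among the lower rows and 179 rows of the whole table were called. The lower count was 0 without control replicate 6, 3 without control replicate 7 and 2 without PTU replicate 4. The large subunit median ran from 0.01 (0.0084, without PTU replicate 4) to 0.07 (0.069), and the small from 0.02 (0.0192, without PTU replicate 2) to 0.11 (0.1055, without PTU replicate 5). Among the named rows, sign changes were confined to rows near 0: the *Mrpl42* row with the lower mean ran from -0.1307 to 0.2266, *Mrps18a* from -0.0629 to 0.0148 and *Mrps9* from -0.0431 to 0.1018. Over all members, the count higher in PTU ran from 41 (without control replicate 4 or PTU replicate 4) to 45 (without control replicate 6), beside 43 with every pup. Of 452 alternative values of the named rows, 437 kept their direction, and none passed the adjusted threshold; several of these rows crossed an unadjusted p of 0.05. The cause of these changes was not tested.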
